A study of Mus musculus with 8 samples.

Results

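The genes described here were 10 pericentral genes of the mouse liver whose expression is known to depend on Wnt signalling: *Glul*, *Slc1a2*, *Oat*, *Cyp2e1*, *Cyp1a2*, *Axin2*, *Rnf43*, *Znrf3*, *Lgr5* and *Tbx3*. They were chosen by symbol from prior knowledge of liver zonation, with earlier results of these data known. Each matched 1 row of the 24940 genes in the deposited count table. RNA-seq was performed on 8 C57BL/6 male livers in a pair of genotypes. The 4 FxrKO livers carried floxed *Bcl6* alleles (Bcl6 fl/fl) and lacked *Fxr* (*Nr1h4*, the gene of the bile acid receptor) in the whole body, with the genotype labelled "FXR(homo)". The 4 Bcl6LKO FxrKO livers carried the same floxed alleles and *Fxr* loss plus Alb-Cre, a recombinase driven by the albumin promoter and active in hepatocytes. Loss of *Bcl6*, a transcriptional repressor, and the presence of the recombinase therefore came together and cannot be told apart. Age, feeding state and litter of single livers are not in the labels. Livers 1 to 4 are FxrKO and livers 5 to 8 are Bcl6LKO FxrKO throughout, and no number is shared between the genotypes. The sample titles of livers 1 and 6 carry consecutive numbers, and those of livers 2, 7, 3, 8 and 4 form an unbroken run in that order. The title number of liver 5 stands apart from the others. The labels do not say whether these numbers mark litters or days.

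In the liver lobule, blood flows from the portal triad to the central vein, and hepatocytes along this path express different genes. Endothelial cells of the central vein secrete Wnt ligands and the R-spondin *Rspo3*, which stabilise β-catenin in nearby hepatocytes. β-catenin then acts with TCF and LEF factors on genes that mark the pericentral zone, including those of glutamine synthesis and of many cytochrome P450 enzymes. Position in the lobule was not measured in these libraries, which hold RNA from whole pieces of liver.

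Libraries held between 7586241 and 11839503 counts on genes, and 12340 genes passed edgeR's expression filter, all 10 pericentral genes among them. A level is given as CPM, the count scaled to library size with TMM factors, and 3 counts corresponded to between 0.272 and 0.375 CPM, which covers counting error only. The targeted gene *Bcl6* went with the labels, at 21.2 to 65.2 CPM in FxrKO livers and 4.61 to 11.9 CPM in Bcl6LKO FxrKO livers (log2 fold change -2.72, adjusted p = 0.00123 in edgeR), while *Nr1h4* was still counted in every liver, at 56.7 to 62.6 CPM in FxrKO and 39.4 to 48.1 CPM in Bcl6LKO FxrKO livers (-0.46, adjusted p = 0.00497 in edgeR). The tissue label was checked with *Alb*, which was at 38238 to 48536 CPM in FxrKO livers and 127793 to 146953 CPM in Bcl6LKO FxrKO livers. The 50 most counted genes took 31.2% to 32.6% of the counts in FxrKO livers and 41.7% to 45.1% in Bcl6LKO FxrKO livers. Scaling by total counts alone therefore shifted the log2 fold changes of all genes by a median of -0.16 against TMM, and 32.3% of the genes called were then higher, against 54.5% with TMM.

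Liver 6 of the Bcl6LKO FxrKO genotype stood apart for zonated genes, which was seen in the values and not known from the labels. It was the lowest of its 4 livers for 9 of the 10 pericentral genes, with a median deviation from the genotype mean of -0.47 on the log2 scale. Across all tested genes it was the lowest of the 4 in 23.6%. It was also lowest for 13 of 21 further pericentral genes, and it was the highest for 16 of 22 periportal genes, with a median deviation of 0.48. Results are therefore also given without liver 6. In the FxrKO genotype, liver 1 was the lowest for 15 of 22 periportal genes, with a median deviation of -0.25, and the lowest for 3 of the 10 pericentral genes.

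**Figure D1:**
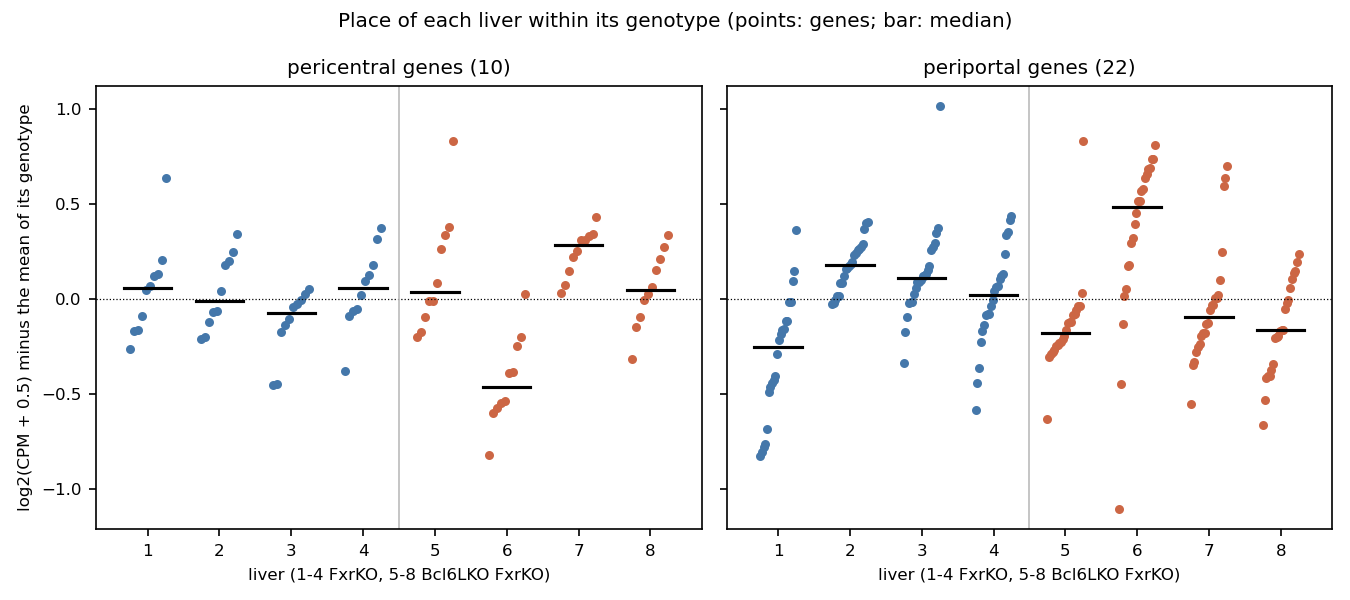
Each point is 1 gene in 1 liver, drawn as log2(CPM + 0.5) minus the mean of the 4 livers of its genotype, for the 10 pericentral genes (left) and 22 periportal genes (right). Black bars are medians, and liver 6 had the lowest median of the pericentral genes (-0.47) and the highest of the periportal genes (0.48).

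The 10 pericentral genes did not move as a block between the genotypes. *Cyp2e1* fell by 1.92 on the log2 scale and *Slc1a2* rose by 1.68, and the other 8 did not pass the test at an adjusted p under 0.05 in edgeR. Thus 1 of 10 rose and 1 of 10 fell, beside 16.2% of all tested genes that were called higher and 13.5% that were called lower (29.7% in either direction). The log2 fold change was negative for 8 of the 10 genes, with a median of -0.31, while it was negative for 49.0% of all tested genes, with a median of 0.01. Without liver 6 the median of the 10 genes was -0.16, with 8 of 10 still negative. The livers of the genotypes did not overlap for the same pair of genes, *Cyp2e1* and *Slc1a2*, beside 31.3% of all tested genes.

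**Figure D2:**
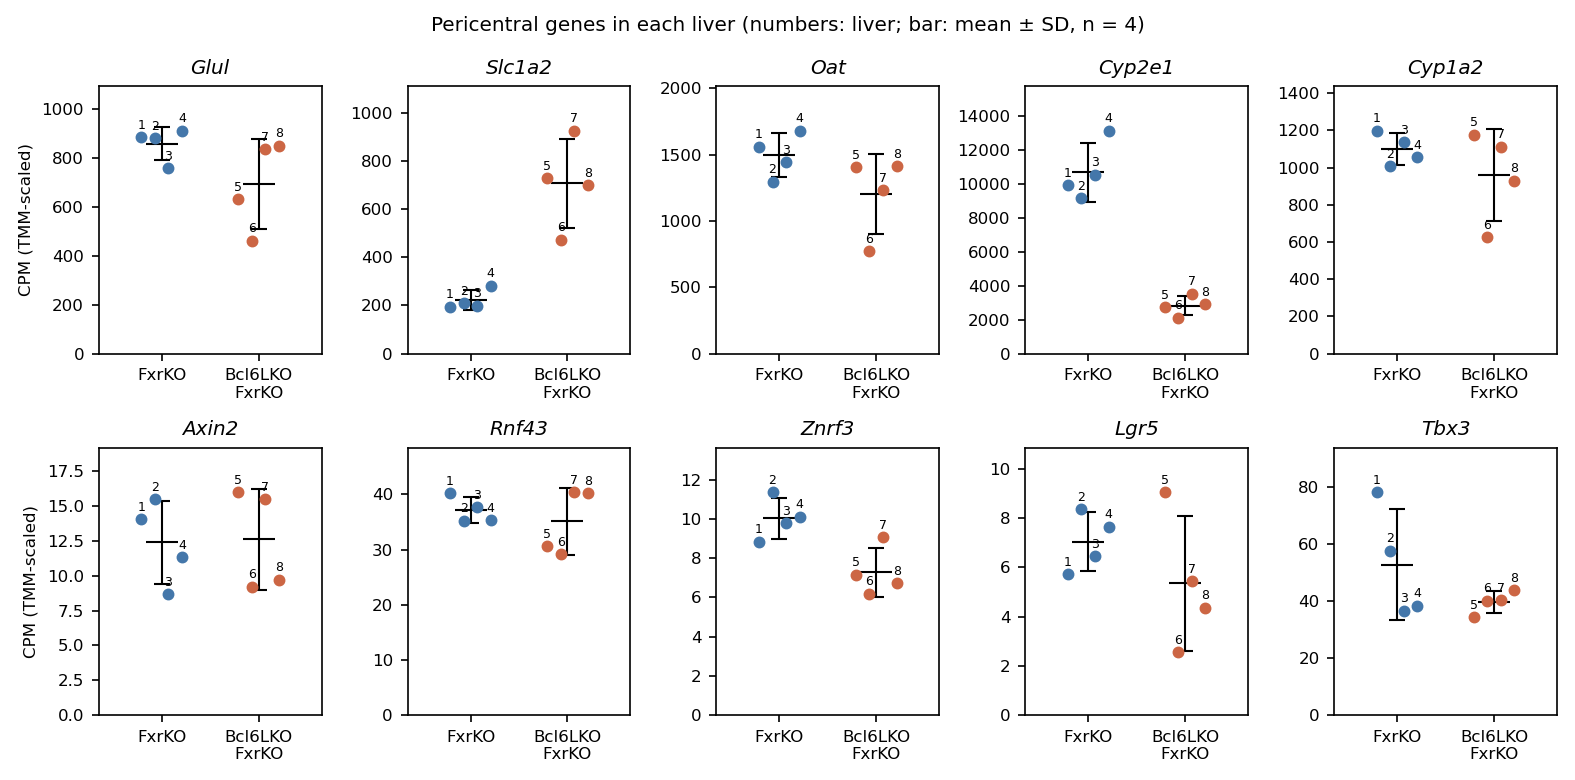
Level of each of the 10 pericentral genes in every liver, as TMM-scaled CPM on linear axes starting at 0; points carry the liver number and bars are the mean ± SD of 4 livers. *Slc1a2* and *Cyp2e1* are the panels in which the genotypes separate, and liver 6 is the lowest Bcl6LKO FxrKO point in 9 panels, *Tbx3* being the exception.

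*Glul* encodes glutamine synthetase, which joins ammonia to glutamate in the last hepatocytes before the central vein (mm10 chromosome 1, 153899929 to 153909723, plus strand, 7 exons). It was at 883, 880, 756 and 910 CPM in FxrKO livers and at 629, 460, 834 and 849 CPM in Bcl6LKO FxrKO livers. Livers 7 and 8 lay within the FxrKO range, while livers 5 and 6 lay below it, so the genotypes overlapped. The log2 fold change was -0.31 (SE 0.18, 95% interval -0.69 to 0.07, adjusted p = 0.209 in edgeR), and it was -0.16 without liver 6. The spread among livers was larger in Bcl6LKO FxrKO (coefficient of variation 26.7%) than in FxrKO (8.05%), a difference that was not tested.

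*Slc1a2* encodes a glutamate transporter that takes up the substrate of glutamine synthetase (chromosome 2, 102706438 to 102790784, plus strand, 11 exons). It was at 194, 209, 199 and 282 CPM in FxrKO livers and at 729, 473, 928 and 700 CPM in Bcl6LKO FxrKO livers. Every Bcl6LKO FxrKO liver, liver 6 included, was above every FxrKO liver. The means were 221 ± 41.4 and 708 ± 186 CPM (SD, n = 4 each), a ratio of 3.20, and the log2 fold change was 1.68 (SE 0.19, 95% interval 1.26 to 2.10, adjusted p = 4.37e-05 in edgeR). Without liver 6 it was 1.82. The exons of *Slc1a2* overlap those of an antisense gene, *Gm13872*, by 189 bases, and no strand option is named for the counting, so reads there cannot be told apart. *Gm13872* had 51 to 92 counts in FxrKO livers and 211 to 466 in Bcl6LKO FxrKO livers, against 1672 to 9524 counts for *Slc1a2* over all livers.

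*Oat* encodes ornithine aminotransferase, which turns ornithine into a precursor of glutamate (chromosome 7, 132557475 to 132576398, minus strand, 10 exons). It was at 1561, 1296, 1444 and 1682 CPM in FxrKO livers and at 1404, 771, 1231 and 1412 CPM in Bcl6LKO FxrKO livers. Livers 5 and 8 lay within the FxrKO range, liver 7 was below it and liver 6 was far below it. This gave a log2 fold change of -0.31 (SE 0.18, 95% interval -0.70 to 0.07, adjusted p = 0.208 in edgeR), or -0.16 without liver 6.

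*Cyp2e1* encodes the cytochrome P450 that oxidises ethanol and acetaminophen (chromosome 7, 140763832 to 140774977, plus strand, 9 exons). It was at 9911, 9137, 10532 and 13127 CPM in FxrKO livers and at 2748, 2114, 3515 and 2897 CPM in Bcl6LKO FxrKO livers. The highest Bcl6LKO FxrKO liver, liver 7, was below the lowest FxrKO liver, liver 2. The means were 10677 ± 1730 and 2819 ± 575 CPM (SD, n = 4 each), a ratio of 3.79, and the log2 fold change was -1.92 (SE 0.17, 95% interval -2.30 to -1.55, adjusted p = 4.45e-06 in edgeR). It was -1.82 without liver 6. In these bulk samples, fewer cells of a type and less RNA per cell cannot be told apart.

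*Cyp1a2* encodes the cytochrome P450 of caffeine metabolism and is also a target of the aryl hydrocarbon receptor (chromosome 9, 57676937 to 57683655, minus strand, 7 exons). It was at 1199, 1007, 1138 and 1056 CPM in FxrKO livers and at 1177, 626, 1112 and 930 CPM in Bcl6LKO FxrKO livers. Apart from liver 6, the genotypes covered nearly the same range. *Cyp1a2* had a log2 fold change of -0.19 (SE 0.17, 95% interval -0.57 to 0.18, adjusted p = 0.429 in edgeR), and it was -0.04 without liver 6. The interval of *Cyp2e1* lay wholly below that of *Cyp1a2*.

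For the genes that carried the opposite changes, and for *Glul* as the marker that was not called, the 250 bases before the RefSeq start are shown (GRCm38.p6, the assembly of mm10, all on the plus strand). Capitals mark a single form of the TCF/LEF core, CTTTGAT on either strand, which reads ATCAAAG here. The windows are chr2:102706188-102706437 for *Slc1a2*, chr7:140763569-140763818 for *Cyp2e1* and chr1:153899679-153899928 for *Glul*.
Slc1a2: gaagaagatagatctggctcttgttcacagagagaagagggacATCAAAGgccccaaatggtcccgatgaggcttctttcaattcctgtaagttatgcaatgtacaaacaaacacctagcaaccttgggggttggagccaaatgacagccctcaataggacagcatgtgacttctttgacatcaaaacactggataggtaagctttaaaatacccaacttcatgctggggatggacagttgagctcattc
Cyp2e1: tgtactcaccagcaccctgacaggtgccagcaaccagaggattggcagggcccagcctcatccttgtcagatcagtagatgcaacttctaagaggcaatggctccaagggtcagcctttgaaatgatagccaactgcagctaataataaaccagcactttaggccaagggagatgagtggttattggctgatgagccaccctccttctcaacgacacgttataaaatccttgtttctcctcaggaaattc
Glul: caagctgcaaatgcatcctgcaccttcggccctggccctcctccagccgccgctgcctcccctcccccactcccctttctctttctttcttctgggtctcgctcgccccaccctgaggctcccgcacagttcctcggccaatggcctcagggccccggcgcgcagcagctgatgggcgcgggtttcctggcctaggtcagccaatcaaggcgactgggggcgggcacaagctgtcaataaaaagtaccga

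The RefSeq promoter table held 8 windows for 7 of the 10 genes, of which *Rnf43* had 2. *Lgr5*, *Tbx3* and *Znrf3* are not in the table. The form CTTTGAT of the TCF/LEF core was in 1 of the 8 windows, that of *Slc1a2*, at bases -207 to -201 from the start. It was in 3.73% of 32851 windows of the same length over all genes (250 bases before to 50 after the start). Only this form was searched. CTTTGAA, which differs from it in the last base, is in the *Cyp2e1* window and, on the other strand, in that of *Cyp1a2*. How often CTTTGAA occurs over all genes was not counted. The motif TTCNNNGAA, which BCL6 and STAT factors are known to bind and which reads alike on both strands, was in 0 of the 8 windows and in 8.30% of all windows. The shown windows differed in composition, with 44.8% G and C for *Slc1a2*, 48.8% for *Cyp2e1* and 64.8% for *Glul*. These matches describe letters and not binding.

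*Axin2* encodes a scaffold of the complex that degrades β-catenin and is a feedback target of the pathway in many tissues (chromosome 11, 108920349 to 108950781, plus strand, 11 exons). It was at 14.0, 15.5, 8.71 and 11.4 CPM in FxrKO livers and at 16.0, 9.22, 15.5 and 9.72 CPM in Bcl6LKO FxrKO livers. High and low livers occurred in both genotypes, and the ranges were nearly the same. For *Axin2* the log2 fold change was 0.03 (SE 0.22, 95% interval -0.46 to 0.52, adjusted p = 0.932 in edgeR). Its sign was not stable, since it was -0.12 with total counts alone and between -0.11 and 0.15 when each liver was left out.

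*Rnf43* and *Znrf3* encode membrane ubiquitin ligases that remove Frizzled receptors from the cell surface and are themselves switched on by Wnt signalling (both on chromosome 11, *Rnf43* at 87663087 to 87735539 on the plus strand and *Znrf3* at 5276329 to 5381740 on the minus strand). *Rnf43* was at 40.3, 35.2, 37.7 and 35.4 CPM in FxrKO livers and at 30.6, 29.1, 40.4 and 40.2 CPM in Bcl6LKO FxrKO livers. Livers 5 and 6 lay below and livers 7 and 8 at the top of the FxrKO range, and the log2 fold change was -0.08 (SE 0.13, 95% interval -0.37 to 0.21, adjusted p = 0.682 in edgeR), or -0.01 without liver 6. *Znrf3* was at 8.85, 11.4, 9.78 and 10.1 CPM in FxrKO livers and at 7.15, 6.19, 9.06 and 6.72 CPM in Bcl6LKO FxrKO livers. Liver 7 alone overlapped the FxrKO range, just above liver 1. The log2 fold change of *Znrf3* was -0.46 (SE 0.17, 95% interval before adjustment -0.82 to -0.09, adjusted p = 0.0568 in edgeR), so it missed the threshold. It passed the threshold with limma voom (-0.45, adjusted p = 0.0426), with total counts alone and with the 50 most counted genes left out of the normalization, and also without liver 7 (-0.58, adjusted p = 0.0266 in edgeR), on 51 to 107 counts per liver.

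*Lgr5* encodes an R-spondin receptor that marks Wnt-responsive cells (chromosome 10, 115450314 to 115587780, minus strand, 18 exons). It was at 5.72, 8.37, 6.45 and 7.66 CPM in FxrKO livers and at 9.06, 2.55, 5.45 and 4.36 CPM in Bcl6LKO FxrKO livers. The Bcl6LKO FxrKO livers held both the highest value, in liver 5, and the 3 lowest. The log2 fold change was -0.38 (SE 0.30, 95% interval -1.04 to 0.27, adjusted p = 0.365 in edgeR) on 21 to 90 counts per liver. The value turned on single livers, at -0.18 without liver 6 and -0.76 without liver 5 (adjusted p = 0.0551 in edgeR). A 2-fold difference of *Lgr5* is inside the lower end of that interval.

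*Tbx3* encodes a T-box transcriptional repressor (chromosome 5, 119670862 to 119684724, plus strand, 8 exons). It was at 78.2, 57.6, 36.5 and 38.3 CPM in FxrKO livers and at 34.2, 40.0, 40.3 and 43.8 CPM in Bcl6LKO FxrKO livers. Livers 1 and 2 were above all others, while livers 3 and 4 lay among the Bcl6LKO FxrKO livers. *Tbx3* was thereby the pericentral gene that varied most among FxrKO livers (coefficient of variation 37.0%). For *Tbx3* the log2 fold change was -0.41 (SE 0.22, 95% interval -0.88 to 0.06, adjusted p = 0.179 in edgeR). Without liver 1 it was -0.16, and without liver 3 it was -0.55 (adjusted p = 0.0671 in edgeR).

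**Figure D3:**
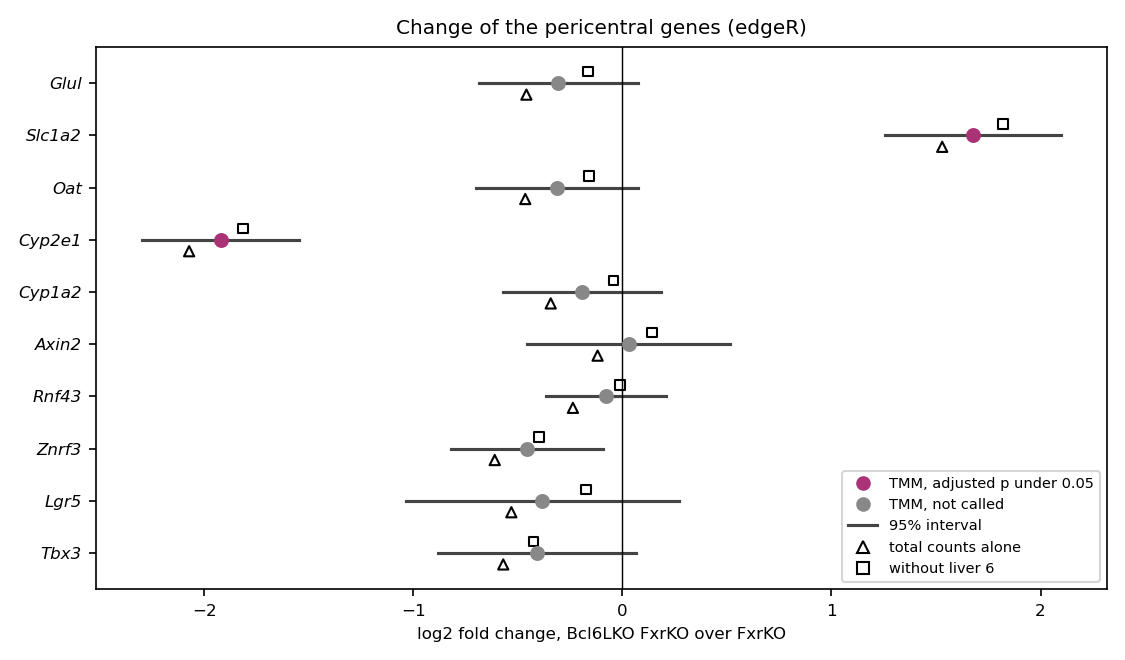
Log2 fold change of Bcl6LKO FxrKO over FxrKO livers for the 10 pericentral genes by edgeR with TMM scaling (circles, with 95% intervals), with total counts alone (triangles) and without liver 6 (squares). *Slc1a2* (1.68) and *Cyp2e1* (-1.92) passed an adjusted p under 0.05, and *Znrf3* (-0.46) was the next closest to the threshold.

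Levels were then compared between the genes per transcript length, as RPKM (TMM-scaled CPM per 1000 bases). The order of mean RPKM was the same in both genotypes: *Cyp2e1*, *Oat*, *Cyp1a2*, *Glul*, *Slc1a2*, *Tbx3*, *Rnf43*, *Axin2*, *Lgr5* and *Znrf3*. *Cyp2e1* led with a mean of 6189 RPKM in FxrKO and 1634 RPKM in Bcl6LKO FxrKO livers, and *Znrf3* was last with 1.40 and 1.01 RPKM. In either genotype the livers of *Oat* and *Cyp1a2*, of *Tbx3* and *Rnf43*, and of *Lgr5* and *Znrf3* overlapped, so the order within these pairs was not beyond the spread. The other neighbours were separate in all livers. *Slc1a2* stood between *Glul* and *Tbx3*, at 20.1 RPKM in FxrKO and 64.4 RPKM in Bcl6LKO FxrKO livers.

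Ratios of RPKM within a liver, which do not depend on scaling between libraries, were taken as descriptions with no test. The log2 ratio of *Glul* to *Slc1a2* was 3.94 ± 0.21 in FxrKO and 1.94 ± 0.22 in Bcl6LKO FxrKO livers (SD, n = 4 each), and the livers of the genotypes were separate. The log2 ratio of *Glul* to *Oat* was -1.18 ± 0.17 and -1.18 ± 0.25, so the mean ratio of this pair was nearly the same in both genotypes. The log2 ratio of *Cyp2e1* to *Cyp1a2* went from 3.40 ± 0.26 to 1.70 ± 0.24, again with separate livers. In liver 6, where both P450 genes were lowest, this ratio was 1.88, beside 1.35, 1.79 and 1.77 in livers 5, 7 and 8. The ratios of *Axin2* to *Lgr5* and of *Rnf43* to *Znrf3* overlapped between the genotypes.

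The rest of the Wnt pathway was read from a list of 98 genes in 6 roles, of which 58 were tested. Of these, 12 rose and 5 fell (edgeR, adjusted p under 0.05), which is 17 of 58 beside 29.7% of all tested genes, and the median log2 fold change was 0.06 beside 0.01. Among 23 ligands and R-spondins, 13 had at most 3 counts in every liver and 6 were tested. Of the central vein signals, *Wnt2* was at 3.87 to 4.73 CPM in FxrKO and 2.55 to 4.54 CPM in Bcl6LKO FxrKO livers (log2 fold change -0.26, adjusted p = 0.422 in edgeR), and *Wnt9b* was at 0.75 to 1.61 CPM and 0.485 to 2.42 CPM (0.41, adjusted p = 0.475 in edgeR). Both overlapped between genotypes at these low counts. *Rspo3* was at 3.75, 5.25, 5.05 and 5.30 CPM in FxrKO and 9.77, 6.31, 7.79 and 5.36 CPM in Bcl6LKO FxrKO livers, with no overlap but a log2 fold change of 0.60 at an adjusted p of 0.0567 in edgeR. It passed the threshold without liver 8 (0.72, adjusted p = 0.0214 in edgeR) and also under an alternative that kept all livers. The ligands that rose were *Wnt5b* (log2 fold change 0.93) and *Wnt4* (0.76), which are better known for β-catenin-independent signalling. Of the 6 tested ligands and R-spondins, 33.3% were thus called higher and 0.0% lower, beside 16.2% and 13.5% of all tested genes. *Wnt4* missed the threshold without liver 2, 3, 4, 5 or 8 (adjusted p up to 0.114 in edgeR) and with total counts alone. *Wls*, which carries Wnt proteins to the cell surface, rose from 3.77 ± 0.54 to 10.8 ± 2.97 CPM (SD, n = 4 each), a log2 fold change of 1.51 (adjusted p = 0.000298 in edgeR), while the Wnt acyltransferase gene *Porcn* had a log2 fold change of 0.02 and was not called.

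Among receptors, 1 of 11 tested rose and 1 fell, and these were the paired co-receptors *Lrp5* (log2 fold change 0.51) and *Lrp6* (-0.46). That is 9.1% in each direction, beside 16.2% of all tested genes called higher and 13.5% called lower. *Lgr4*, the R-spondin receptor of most hepatocytes, was at 50.2, 52.5, 50.5 and 50.5 CPM in FxrKO and 74.5, 92.0, 83.2 and 39.0 CPM in Bcl6LKO FxrKO livers, with liver 8 below and the other 3 above all FxrKO livers (0.50, adjusted p = 0.0926 in edgeR). It passed without liver 8 (0.71, adjusted p = 0.000193 in edgeR) and also under an alternative that kept all livers. Of 19 tested transduction genes, 15.8% rose, *Csnk1e* (0.77), *Dvl2* (0.61) and *Btrc* (0.45), and 5.3% fell, *Dvl3* (-0.42). These small changes were near the threshold. In edgeR with 1 liver left out, the adjusted p reached 0.0715 for *Lrp5* (lost without liver 3, 4 or 5), 0.120 for *Lrp6* (2, 3, 4, 5 or 8), 0.0841 for *Dvl2* (1, 3, 4 or 5), 0.0736 for *Btrc* (any but liver 6) and 0.0919 for *Dvl3* (2, 4, 5 or 7). *Ctnnb1*, the β-catenin gene, was at 222 ± 19.4 and 218 ± 37.4 CPM (SD, n = 4 each), with a log2 fold change of -0.02 (adjusted p = 0.915 in edgeR). The destruction complex genes *Apc* (-0.05), *Axin1* (0.13) and *Gsk3b* (-0.19) were not called either. Among 12 tested nuclear factors, 16.7% rose and 16.7% fell. *Tcf7* (1.32), a TCF factor also known from T cells, and the coactivator *Bcl9* (1.31) rose. The *Bcl9* relative *Bcl9l* (-0.56) and *Pygo2* (-0.46) fell. *Tcf7l2*, the main TCF factor of hepatocytes, was not called (-0.23, adjusted p = 0.351 in edgeR).

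Of 8 tested Wnt inhibitors, the secreted antagonists *Frzb* (log2 fold change 1.71) and *Dkk3* (1.08) and the intracellular *Dact2* (0.59) rose, and *Dact1* (-1.26) fell. These are 37.5% higher and 12.5% lower, beside 16.2% and 13.5% of all tested genes. *Dact2* missed the threshold without liver 3, 4 or 5 (adjusted p up to 0.0754 in edgeR). Genes that Wnt signalling is known to induce in other settings gave 3 rises among 10 tested (30.0% beside 16.2% of all tested genes, and 5 rises without liver 2, 4 or 5): *Tnfrsf19* (1.59), *Tcf7* (1.32) and *Ccnd1*, the cyclin D1 gene (1.20). The feedback inhibitors *Nkd1* (0.83, adjusted p = 0.0506 in edgeR) and *Notum* (-0.16) were not called. *Ccnd1* went from 38.1, 21.2, 24.1 and 26.0 CPM in FxrKO to 55.4, 77.3, 51.4 and 68.3 CPM in Bcl6LKO FxrKO livers, and liver 6 was the highest of them, unlike its place in 9 of the 10 pericentral genes.

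**Figure D4:**
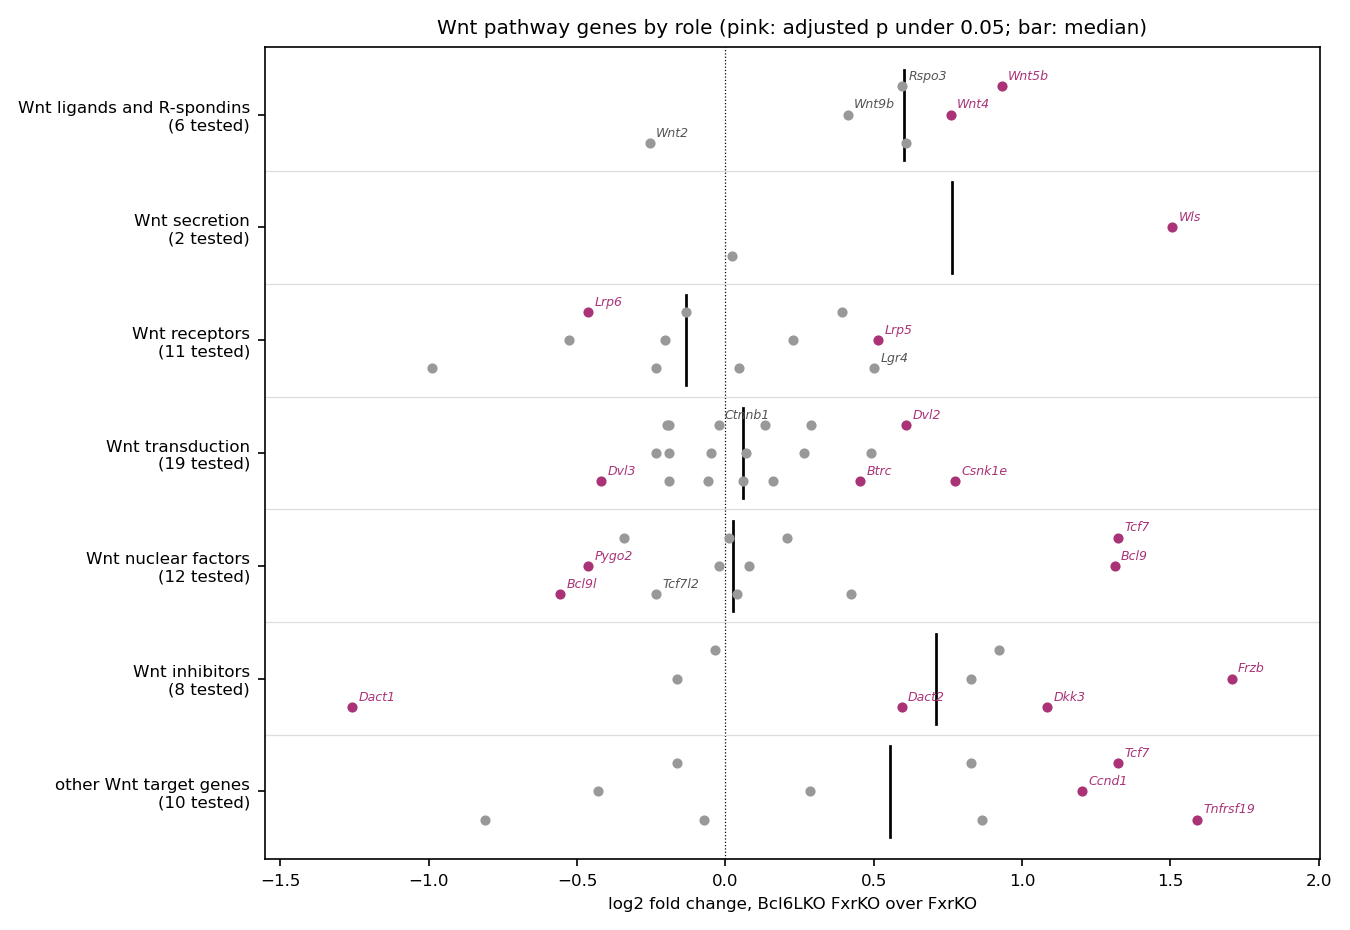
Log2 fold change (Bcl6LKO FxrKO over FxrKO, edgeR) of every tested gene of the Wnt pathway by role and of other Wnt target genes; pink points passed an adjusted p under 0.05, and black bars are medians. *Ctnnb1* (-0.02) and *Tcf7l2* (-0.23) lie near 0, and *Wls* (1.51) and *Frzb* (1.71) lie far to the right.

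Other genes known from the pericentral zone also went both ways. Of 21 tested, 6 rose and 8 fell, or 28.6% and 38.1% beside 16.2% and 13.5% of all tested genes. Their median log2 fold change was -0.07, and 0.04 without liver 6. Those that rose most were *Slc13a3*, a dicarboxylate carrier (2.35), the glutathione transferases *Gstm3* (2.31) and *Gstm1* (1.13), and *Slc22a3*, an organic cation transporter (2.22). *Rhbg*, an ammonium transporter of the same cells as *Glul*, rose as well, from 31.6 ± 4.12 to 65.2 ± 20.9 CPM (SD, n = 4 each). Those that fell most were the vasopressin receptor gene *Avpr1a* (-3.47), the P450 genes *Cyp2c50* (-3.47) and *Cyp2c54* (-3.01), and *Slco1b2*, an organic anion uptake carrier (-1.79). The *Cyp2c* genes are close paralogs, and reads with more than 1 location were discarded, so their counts leave out reads that fit several copies equally. Among the genes named here, the P450 genes fell, as *Cyp2e1* did, and solute carriers went both ways. Apart from *Rhbg* these were named for the largest changes, and the other P450 genes of the list are not reported here. *Cyp1a2* was not called.

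The periportal genes had mostly negative log2 fold changes. Of 22 tested, 5 fell and 1 rose, or 22.7% and 4.5%, beside 13.5% of all tested genes called lower and 16.2% called higher. In either direction 27.3% were called, near the 29.7% of all tested genes. Values were negative in 19 of the 22, and the median was -0.35. *Pck1* of gluconeogenesis (-1.61), *Cyp2f2* (-1.52), the cationic amino acid transporter *Slc7a2* (-0.89) and the immunoglobulin receptor *Pigr* (-0.69) fell, and *Aldh1b1* rose (2.22). The median of the periportal list, like that of the 10 pericentral genes (-0.31), was below the 0.01 of all tested genes. Without liver 6 the medians were -0.54 for the periportal and -0.16 for the pericentral genes. The number of periportal genes called lower depended on single livers, ranging from 2 without liver 5 to 12 without liver 6, with 3 without liver 2, 7 or 8. *Slc7a2* was lost without liver 4, 5, 6 or 8 (adjusted p up to 0.0955 in edgeR) and *Pigr* without liver 2, 5, 7 or 8 (up to 0.0754).

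Enzymes and carriers of glutamine and ornithine other than *Glul*, *Slc1a2* and *Oat* were also compared, and of 16 tested 5 rose and 3 fell. These are 31.2% and 18.8%, beside 16.2% of all tested genes called higher and 13.5% called lower. *Aldh18a1* of proline synthesis (2.04), the glutamine carrier *Slc1a5* (1.11) and *Rhbg* (1.04) rose, although *Slc1a5* was lost without liver 2, 3, 5, 6 or 8 (adjusted p up to 0.0934 in edgeR). The amino acid carrier *Slc38a4* (-1.09), *Prodh* of proline breakdown (-1.07) and *Otc* of the urea cycle (-0.87) fell. *Slc1a1*, another glutamate transporter, was not tested, and had 0 counts in all FxrKO livers and 31, 3, 13 and 17 counts in livers 5 to 8. Of 6 tested genes around the aryl hydrocarbon receptor, which also controls *Cyp1a2*, *Nqo1* rose (1.80), or 16.7% beside 16.2% of all tested genes. Without liver 8 there were 3 rises. The receptor gene *Ahr* was at 48.9 ± 12.0 and 59.8 ± 12.6 CPM (SD, n = 4 each), with a log2 fold change of 0.29 (adjusted p = 0.272 in edgeR).

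**Figure D5:**
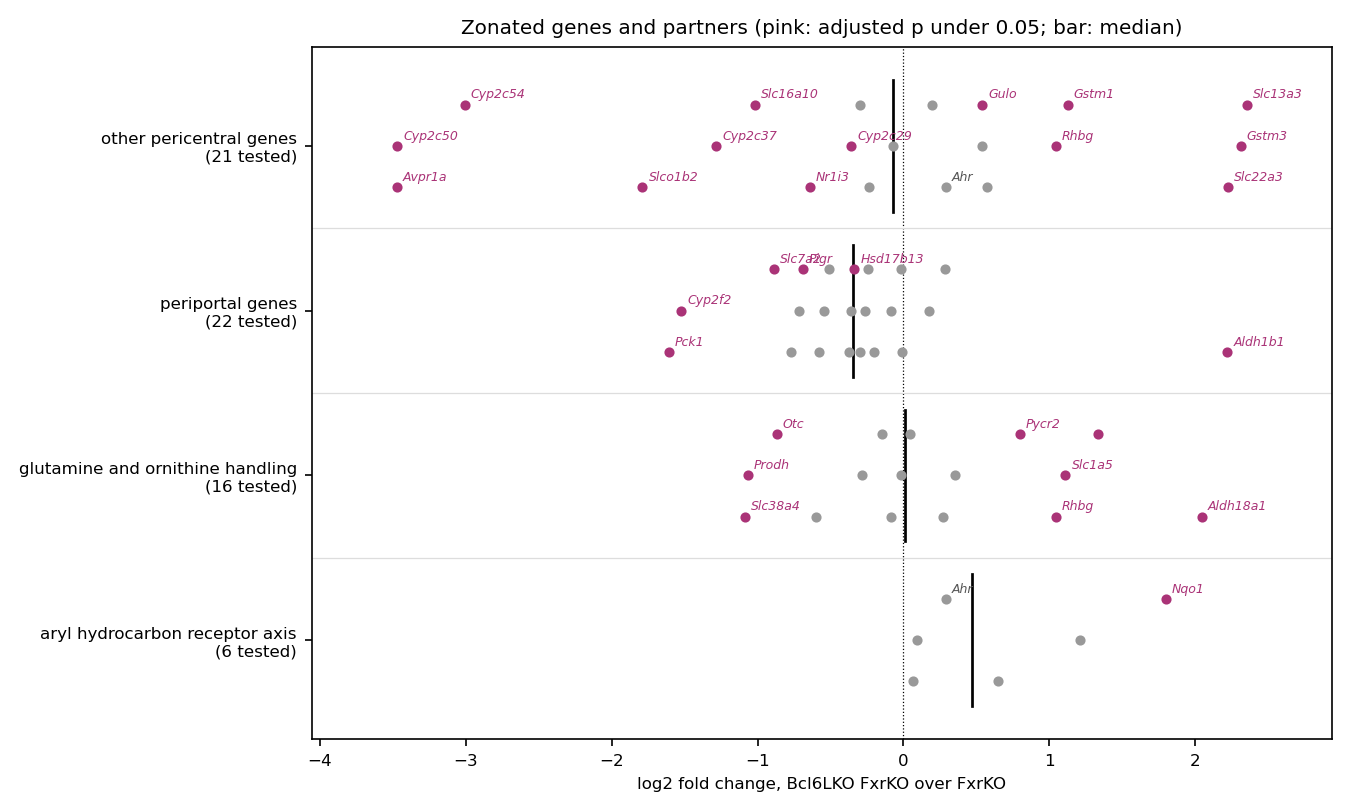
Log2 fold change (Bcl6LKO FxrKO over FxrKO, edgeR) of tested genes of the pericentral zone other than the 10, the periportal zone, glutamine and ornithine handling, and the aryl hydrocarbon receptor axis; pink points passed an adjusted p under 0.05, and black bars are medians. Pericentral genes spread from -3.47 (*Cyp2c50* and *Avpr1a*) to 2.35 (*Slc13a3*), and 19 of 22 periportal genes lie left of 0.

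Markers of liver cell types were also compared, beside 29.7% of all tested genes called in either direction (16.2% higher and 13.5% lower). The share called was above 29.7% for stellate cell and fibroblast, cholangiocyte and hepatocyte markers. It was below 29.7% for macrophage, endothelial and central vein endothelial markers. Among the latter, only macrophage markers had a share called higher above 16.2%. Of 10 stellate cell and fibroblast markers, 9 rose, and the median over the list was 0.99 on the log2 scale. Their summed level was 234 to 339 CPM in FxrKO and 502 to 591 CPM in Bcl6LKO FxrKO livers. Cholangiocyte markers summed to 41.7 to 66.4 and 76.3 to 136 CPM, with 3 of 5 tested called higher and *Cftr* at 3 counts or fewer in every liver. With each liver left out, 2 to 4 of them were called higher. *Krt19* lost the threshold in 6 of these fits (adjusted p up to 0.0807 in edgeR). Macrophage markers summed to 335 to 476 and 479 to 779 CPM, with 2 of 8 called higher. Endothelial markers, the class that contains the source of *Wnt2* and *Wnt9b*, summed to 233 to 334 and 298 to 386 CPM, with 1 of 10 called higher (*Stab2*, 0.63), or 2 without liver 4, 5 or 6. Of 9 central vein endothelial markers, *Vwf* rose (1.60), *Lhx6* fell (-1.05) and the other 7, *Wnt2*, *Wnt9b* and *Rspo3* included, were not called. However, there were 2 rises in this list without liver 8 and under an alternative that kept all livers. Of 10 hepatocyte markers, 3 rose, led by *Alb* (1.60), and 2 fell, *Ttr* (-0.76) and *Apob* (-0.45). *Apob* missed the threshold when any liver but liver 6 was left out (adjusted p up to 0.114 in edgeR), and 3 markers fell without liver 6. The part of these cell types in the values of *Slc1a2*, *Wls*, *Tcf7* or the inhibitors was not tested.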

How the data were processed

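Liver poly(A) RNA of 4 FxrKO and 4 Bcl6LKO FxrKO males was sequenced by the study as 100 base single-end reads from a stranded kit. The authors aligned them to mm10 with STAR 2.5.2, discarding reads with more than 4 mismatches or more than 1 location, and deposited unnormalized exon counts per gene from HOMER 4.10, with no strand option named and 1 transcript per gene. Counts were fitted here in R 4.3.3 with edgeR 4.0.16 (filterByExpr, TMM, robust quasi-likelihood test), with Benjamini-Hochberg adjustment over 12340 genes and calls at an adjusted p under 0.05. CPM and RPKM were computed from the counts with TMM factors and the deposited lengths.

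The 10 genes and the 17 other lists, written by hand, were chosen with earlier results of these data known, so no list was tested. Named were the 10 genes, up to 4 called genes of each list with the largest change per direction, and 10 fixed genes such as *Ctnnb1*, *Wnt2* and *Bcl6*. *Porcn*, *Apc*, *Axin1*, *Gsk3b*, *Nkd1*, *Notum* and *Slc1a1* were added after their values were seen, and some list genes are not reported here. Alternatives were DESeq2 1.42.0, limma voom 3.58.1 with quality weights, scaling by RLE factors or by total counts alone, other filters, fold thresholds, a shorter promoter window and each liver left out. The edgeR, DESeq2 and voom fits were tested on simulated data. Livers of a genotype differed by more than sampling noise (chi-square 10.0 to 45.8 per degree of freedom), and p-values measure the spread between these livers.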

Additional observations from a re-analysis of the deposited data

Results flagged for a closer look

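In 162 sets of 4 livers, 1 in each genotype for every gene the naming rule gave and every ratio between genes, the liver at one end was set apart from the other 3 when its gap to the nearest, as a ratio to the whole range, exceeded Dixon's 95% critical value, which chance gives in about 1 of 20 sets, or 8.1 here. This held for 10 sets. Of the 10 pericentral genes it held for *Slc1a2* alone, in FxrKO liver 4 (282 CPM beside 194 to 209 CPM, ratio 0.834). The rise of *Slc1a2* was past the threshold without any single liver. Of Wnt pathway genes, FxrKO liver 1 was the highest for *Pygo2* (25.0 CPM beside 20.1 to 20.7 CPM, 0.868) and the lowest for *Rspo3* (3.75 CPM beside 5.05 to 5.30 CPM, 0.841). FxrKO liver 2 was the highest for *Lgr4* (52.5 CPM beside 50.2 to 50.5 CPM, 0.844), and Bcl6LKO FxrKO liver 5 was the highest for *Dvl2* (7.86 CPM beside 6.08 to 6.19 CPM, 0.94). Of zonated genes, FxrKO liver 1 was the highest for *Gstm3* (295 CPM beside 160 to 181 CPM, 0.845). FxrKO liver 3 was the highest for *Aldh1b1* (92.1 CPM beside 84.6 to 85.5 CPM, 0.872), and Bcl6LKO FxrKO liver 7 was the highest for *Slc7a2* (260 CPM beside 141 to 157 CPM, 0.862). Of cell type markers, FxrKO liver 3 was the lowest for *Pdgfrb* (7.95 CPM beside 12.2 to 12.5 CPM, 0.929) and FxrKO liver 1 the highest for *Krt19* (2.08 CPM beside 0.537 to 0.757 CPM, 0.858).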

How the results depend on the processing

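*Cyp2e1* and *Slc1a2* kept their direction and stayed past the threshold under all alternatives run, from -2.07 to -1.81 and from 1.52 to 1.82 on the log2 scale. Over the 10 pericentral genes, 141 values kept side and direction, 4 passed the threshold anew (all *Znrf3*) and 5 changed sign (all *Axin2*). *Znrf3* was called with limma voom (-0.45), total counts alone (-0.61, adjusted p = 0.0181 in edgeR), the 50 most counted genes left out (-0.48, adjusted p = 0.0489 in edgeR) and without liver 7, which makes 2 pericentral genes called lower in each case. With each liver left out, the number called lower was 1 to 2, and *Znrf3* ranged from -0.58 to -0.40. *Axin2* was -0.12 with total counts alone and from -0.11 to 0.15 with each liver left out, at -0.11 without liver 3, -0.01 without liver 4, -0.11 without liver 5 and -0.08 without liver 7. *Ctnnb1* was 0.036 with limma voom and from -0.11 to 0.090 with each liver left out, at 0.020 without liver 2 and 0.090 without liver 8.

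Of Wnt pathway genes in 6 roles, 7 rose and 10 fell with total counts alone, 5 rose and 1 fell at an absolute log2 fold change above 1, and 2 fell above 0.5. With each liver left out, 7 to 13 rose (7 without liver 3) and 3 to 6 fell (3 without liver 2 or liver 5). Over all genes, 1994 rose and 1665 fell, 2949 fell with total counts alone, and 874 rose and 421 fell above 1. The share of called genes that rose was 54.5% with TMM and 32.3% with total counts alone. With each liver left out, 1584 to 1873 rose and 1267 to 1668 fell. In windows of only the 250 bases before the start, CTTTGAT was in 3.21% and TTCNNNGAA in 7.02% of all promoters. Of 66 other named genes, 64 values of 12 genes lost the threshold, 4 of 2 genes passed it and 3 of 1 gene changed sign. The causes were not tested. No paired analysis was run, since no number in the labels is shared between genotypes. Some titles carry consecutive numbers, which the labels do not explain and which were not used to pair livers. *Lgr5* was read from 21 to 90 counts and *Wnt9b* from 4 to 24 counts per liver, so counting error adds to the spread of these genes.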
